A study of Mus musculus with 6 samples.

Results

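Genes of scavenger and endocytic receptors, with 1 secreted partner, were followed across the liver cells of mice with nonalcoholic steatohepatitis: Cd163, Marco, Msr1, Cd36, Scarb1, Stab1, Stab2, Mrc1, Lyve1 and Cd5l. They were chosen by symbol, and all 10 were found among the 19349 genes listed in each of the 6 single-cell tables. The animals were male C57BL/6J mice, 8 weeks old when the diet began, and both groups ate a high-fat diet for 24 weeks. In the last 8 weeks 1 group received vehicle (DMSO) and the other ginkgetin, a biflavonoid from ginkgo leaves, given into the stomach at a daily dose of 10 mg/kg. Each group had 3 libraries of liver non-parenchymal cells, the cells left after most hepatocytes are removed. The labels do not say which animals made each library, so the p-values measure the spread between these libraries, which may be technical. There was no group on normal chow among the 6 libraries, so every level described here is a level under the diet.

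Scavenger receptors bind modified lipoproteins, dead-cell debris, bacterial surfaces and spent plasma proteins, and carry them into the cell for breakdown. In the liver 2 cell types that line the sinusoid do most of this work: Kupffer cells, the resident macrophages, and sinusoidal endothelial cells, whose open wall passes plasma to the hepatocytes. Cd163 takes up hemoglobin bound to haptoglobin, Marco and Msr1 bind bacteria and modified lipoproteins, and Cd5l is a protein that resident macrophages secrete. Cd36 takes up long-chain fatty acids and oxidised lipoproteins, and Scarb1 exchanges cholesterol with high-density lipoprotein. Stab1 and Stab2 clear hyaluronan and other matrix waste, Mrc1 binds mannose-ended glycoproteins and collagen, and Lyve1 binds hyaluronan.

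The members lie apart from each other in the mouse genome (GRCm38, gene spans from GENCODE M21), so none shares its reads with another member. Cd163 spans chr6:124304656-124330527, Marco chr1:120474538-120505024, Mrc1 chr2:14229392-14332057 and Cd36 chr5:17781690-17888801. Mrc1 holds the microRNA gene Mir511 on its own strand, and Scarb1 overlaps Gm42633 on its own strand. Stab1 overlaps Nt5dc2 and Stab2 overlaps 5 predicted genes on the opposite strand, and how strand was used in counting is not given in the sources used here. The start regions of Cd163, Marco, Mrc1 and Cd36 are shown because these 4 members differed between groups both in macrophage-like cells and in the narrower Kupffer-like gate. They run from 250 bases before to 50 bases after the RefSeq start on GRCm38.p6, where 7 of the 10 members had an entry (not Msr1, Scarb1 or Lyve1). Capitals mark matches, on either strand, to the letters GGAAGT of ETS factors such as PU.1, TGCTGA of MAF factors, TGACTCA of AP-1, AGGTCA of nuclear receptors and CATGTG of the MITF family. The windows are chr6:124304401-124304700 (plus strand) for Cd163, chr1:120504975-120505274 (minus strand) for Marco, chr2:14229164-14229463 (plus strand) for Mrc1 and chr5:17835847-17836146 (minus strand) for Cd36. The Cd36 window lies inside the printed gene span, far from its upstream end, so it is at an internal start, and other starts of Cd36 are not shown.
Cd163: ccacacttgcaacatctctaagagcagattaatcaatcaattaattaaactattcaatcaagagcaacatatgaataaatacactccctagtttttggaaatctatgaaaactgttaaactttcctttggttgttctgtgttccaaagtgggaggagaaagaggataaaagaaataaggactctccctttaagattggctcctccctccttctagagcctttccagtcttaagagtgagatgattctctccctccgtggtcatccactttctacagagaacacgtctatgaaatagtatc
Marco: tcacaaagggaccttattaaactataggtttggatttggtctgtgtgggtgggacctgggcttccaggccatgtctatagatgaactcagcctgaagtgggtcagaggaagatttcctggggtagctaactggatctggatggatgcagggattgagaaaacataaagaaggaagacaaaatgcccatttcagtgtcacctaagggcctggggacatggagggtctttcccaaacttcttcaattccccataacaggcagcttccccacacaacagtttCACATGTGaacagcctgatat
Mrc1: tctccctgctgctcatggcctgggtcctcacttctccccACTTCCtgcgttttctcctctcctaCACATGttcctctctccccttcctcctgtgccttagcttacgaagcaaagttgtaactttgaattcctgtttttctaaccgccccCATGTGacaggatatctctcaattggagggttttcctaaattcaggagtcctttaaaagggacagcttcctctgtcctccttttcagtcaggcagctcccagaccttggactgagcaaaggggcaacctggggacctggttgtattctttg
Cd36: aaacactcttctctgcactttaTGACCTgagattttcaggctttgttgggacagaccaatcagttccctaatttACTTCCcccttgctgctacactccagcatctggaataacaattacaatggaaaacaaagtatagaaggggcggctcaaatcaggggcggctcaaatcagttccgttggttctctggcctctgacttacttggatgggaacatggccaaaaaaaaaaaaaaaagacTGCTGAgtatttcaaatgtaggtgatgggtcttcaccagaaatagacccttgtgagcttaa
The Cd163 window held none of these letters, and the Marco window held the MITF letters on both strands at 1 overlapping place. The Mrc1 window held the ETS letters once and the MITF letters at 2 places, and the Cd36 window held the ETS, MAF and nuclear receptor letters once each. Of all 32851 promoter windows of this length, 23.8% held the ETS letters, 19.5% the MAF, 5.2% the AP-1, 16.3% the nuclear receptor and 14.2% the MITF letters. A match is only a match of letters.

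The libraries held 13128697 to 61796882 UMIs (unique molecular identifiers, each standing for 1 captured RNA molecule), and 27544 of 33168 cell barcodes were kept. The mitochondrial limit of 5% was reached by 439 of 6475, 232 of 3577 and 954 of 5328 barcodes in vehicle libraries 1 to 3 and by 562 of 4058, 1192 of 8119 and 1899 of 5611 in ginkgetin libraries 1 to 3, a larger share with ginkgetin in each same-numbered pair. Cells were grouped into 12 classes by marker genes that hold none of the members, and the members took no part in the clustering. Since classes were named from these markers, their levels restate the naming: the 6 macrophage markers summed to 15231 to 20249 CPM (UMIs per 1000000 UMIs of the same cells) in macrophage-like cells against 45.9 to 282 CPM in endothelial-like cells. Endothelial markers in macrophage-like cells are given beside the members they moved with. Replicate 3 of each group stood apart from replicates 1 and 2 in its barcodes and gene symbols, although the members were in both symbol sets, so values are also given for replicate 3 on its own where it differed. Pairs of libraries shared 0 to 85 barcodes. The median macrophage-like cell had 10763 UMIs with vehicle and 2216.5 UMIs with ginkgetin, while T cell-like cells had 3324 and 3209 UMIs. Marker RNA of other cell types in T cell-like cells also differed: the 8 endothelial markers summed to 40.8 to 61.9 CPM in the T cell-like cells of vehicle libraries and to 135 to 783 CPM in those of ginkgetin libraries, whereas the 6 macrophage markers summed to 155 to 220 and 37.7 to 89.3 CPM there. No member is a T cell gene, so the T cell-like level is given below as the background of low members.

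The members fell into 3 patterns over the 12 classes. Cd163, Marco and Cd5l had their highest mean in macrophage-like cells in both groups. With vehicle, Cd163 at 2.35 to 13.1 CPM there overlapped plasmacytoid dendritic-like cells at 0 to 3.39 CPM. Stab1, Stab2, Mrc1, Lyve1, Cd36 and Msr1 were highest in endothelial-like cells, most of them with macrophage-like cells next. By their ranges the order was not clear for each of them. Msr1 was 241 to 433 CPM in vehicle endothelial-like cells and 204 to 228 CPM in vehicle macrophage-like cells, but the ranges overlapped with ginkgetin, at 265 to 497 and 228 to 434 CPM. Within each ginkgetin library the endothelial-like level of Msr1 was the higher one. Scarb1 had no clear order: its ranges in macrophage-like, monocyte-like and endothelial-like cells overlapped in both groups. In the other classes Msr1 was 71.0 to 88.2 CPM in vehicle monocyte-like cells, and Scarb1 59.1 to 77.3 CPM there.

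In macrophage-like cells, Cd163 and Marco rose with ginkgetin more than any other member. These levels are sums over the class, in which a change within cells and a different mix of cells cannot be told apart. Markers of that mix are given below. Cd163 was at 8.95, 13.1 and 2.35 CPM in vehicle libraries 1 to 3 and at 356, 373 and 474 CPM in ginkgetin libraries 1 to 3. Every ginkgetin library was far above every vehicle library, and the T cell-like background did not exceed 2.13 CPM. Its mean was 8.14 ± 5.43 CPM with vehicle and 401 ± 64.1 CPM with ginkgetin (SD over 3 libraries in each group). The fitted log2 fold change was 5.15 (SE 0.66, adjusted p = 0.0127, edgeR quasi-likelihood test with Benjamini-Hochberg adjustment over all genes tested). Marco was at 56.5, 32.5 and 23.7 CPM with vehicle and at 435, 375 and 684 CPM with ginkgetin. The groups did not overlap, and the mean went from 37.6 ± 16.99 to 498 ± 164 CPM, a log2 fold change of 3.23 (SE 0.41, adjusted p = 0.0127, edgeR). The log2 ratio of mean CPM was larger in replicate 3 than in replicates 1 and 2, at 7.66 against 5.05 for Cd163 and at 4.85 against 3.19 for Marco.

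Of the 10 members, 6 were called in macrophage-like cells, meaning an adjusted p under 0.05 and a fold over 2, with 5 higher and 1 lower. Among all 10136 genes tested in these cells 10.2% were called, 5.43% higher and 4.77% lower, and the groups did not overlap in 40.2% of genes. The fit scales each library so that most genes do not change, which puts its fold changes below the ratios of CPM here. Without that scaling the median log2 fold change of all genes was 0.51 instead of 0.02. The calls rested on few libraries: without vehicle library 1, vehicle library 2 or ginkgetin library 2 the count of called members was 0, with adjusted p of Cd163 at 0.0939, 0.105 and 0.067 (edgeR), although its log2 fold change was 4.68 to 5.68 over all 6 such fits. Of all genes tested these 3 fits called 2, 0 and 0. The study states a range of 250 to 5000 UMIs per cell, whereas the values here are of cells with 250 to 5000 detected genes. With the range in UMIs, which leaves far fewer cells than the study describes, 73 to 181 macrophage-like cells per vehicle library remained, of 701 to 1187, and 88 to 419 per ginkgetin library, of 105 to 550. In those cells 2 members were called, Cd163 (4.42, adjusted p = 0.0195, edgeR) and Marco, among 128 of 5954 genes.

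**Figure D1:**
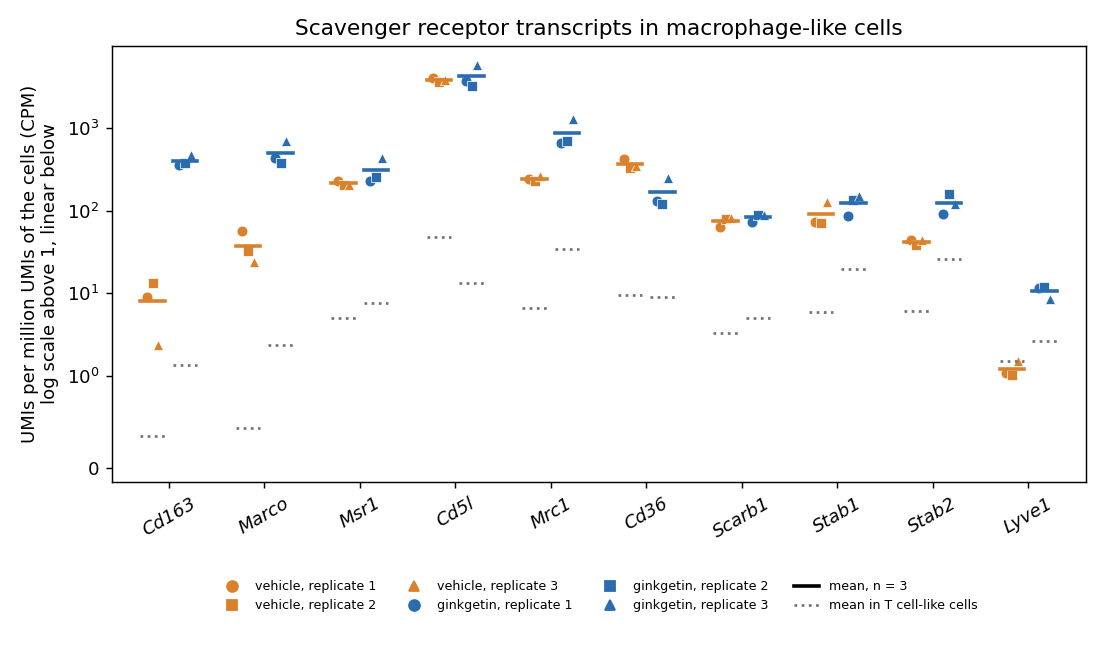
Level of each of the 10 members in macrophage-like cells, in CPM on an axis that is a log scale above 1 and linear below, with 1 point for each library, a bar at each group mean (n = 3 each) and a dotted line at the mean of T cell-like cells. Cd163 and Marco show the widest gap, Cd36 is the member that was lower with ginkgetin, and Msr1, Scarb1, Stab1 and Cd5l overlap or lie close.

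Mrc1, Stab2 and Lyve1, which were highest in endothelial-like cells, were also called higher in macrophage-like cells. Mrc1 was at 237, 225 and 263 CPM with vehicle and at 657, 688 and 1261 CPM with ginkgetin, a log2 fold change of 1.36 (SE 0.24, adjusted p = 0.0195, edgeR). The groups did not overlap, and ginkgetin library 3 was the highest. Stab2 was at 43.6, 38.1 and 43.6 CPM with vehicle and at 90.5, 159.9 and 121 CPM with ginkgetin (log2 fold change 1.12, SE 0.23, adjusted p = 0.0257, edgeR). Lyve1 went from 1.09, 1.04 and 1.53 CPM to 11.7, 11.7 and 8.63 CPM (log2 fold change 2.58, SE 0.39, adjusted p = 0.0149, edgeR). Both kept the groups apart, but the Lyve1 values with ginkgetin rest on 4, 8 and 18 UMIs. T cell-like cells held 0.749 to 2.19 CPM of Lyve1 with vehicle and 0.930 to 4.57 CPM with ginkgetin, and monocyte-like cells with ginkgetin 0 to 24.5 CPM, a range that spans the macrophage-like values.

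Endothelial RNA moved with these 3 members. The 8 endothelial markers summed to 128 to 155 CPM in macrophage-like cells of vehicle libraries and to 747 to 1452 CPM in those of ginkgetin libraries. All 8 were higher, 7 were called, and their median log2 fold change was 2.98. When macrophage-like cells with a UMI of an endothelial marker were left out, 40.0% to 47.8% of the cells remained in vehicle libraries and 4.49% to 12.7% in ginkgetin libraries, as few as 11 cells. In those cells Cd163 and Marco were the members called, against 2.57% of genes, whereas Mrc1 had a log2 fold change of 1.53 (adjusted p = 0.0857) and Stab2 of 0.75 (adjusted p = 0.51, both edgeR). The part of endothelial RNA in the Mrc1, Stab2 and Lyve1 values was not tested.

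Cd36 was the member that fell in macrophage-like cells. It was at 415, 322 and 345 CPM with vehicle and at 131, 120.3 and 246 CPM with ginkgetin. The groups did not overlap, and the log2 fold change was -1.61 (SE 0.27, adjusted p = 0.0178, edgeR). It was not called without vehicle library 1, vehicle library 2, ginkgetin library 1 or ginkgetin library 2, at -1.90 to -1.46 over all 6 such fits. In cells without a UMI of an endothelial marker it was -1.49 (adjusted p = 0.0827, edgeR). In replicate 3 the log2 ratio of CPM was -0.49, against -1.55 in replicates 1 and 2.

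The remaining 4 members were not called in macrophage-like cells. Cd5l, the most abundant member transcript in these cells, was at 4025, 3559 and 3822 CPM with vehicle and at 3698, 3213 and 5809 CPM with ginkgetin (log2 fold change -0.32, adjusted p = 0.475, edgeR). Msr1 was at 228, 205 and 204 CPM with vehicle and at 228, 252 and 434 CPM with ginkgetin (0.04, adjusted p = 0.953, edgeR). The ranges met or overlapped for both. Scarb1 lay at 62.6 to 80.3 CPM with vehicle and 73.0 to 89.5 CPM with ginkgetin (adjusted p = 0.334, edgeR). Stab1 lay at 70.1 to 125 CPM and 84.6 to 150.1 CPM (adjusted p = 0.986, edgeR). Without the scaling between libraries, the fitted log2 fold changes of Scarb1 and Cd5l turn from below 0 to 0.19 and 0.17.

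Kupffer-like cells were then taken as macrophage-like cells with UMIs of at least 2 of the 6 markers Clec4f, Vsig4, Timd4, Folr2, C6 and Il18bp. UMIs were counted in unthinned cells, and the median macrophage-like cell had 10763 UMIs with vehicle and 2216.5 with ginkgetin. How far passing the gate depended on depth was not tested. This gate was chosen after the clusters had been seen, and it kept 809, 483 and 587 cells in the vehicle libraries and 93, 210 and 507 in the ginkgetin libraries. In these cells 5 of the 10 members were called, against 10.3% of the 9681 genes tested. Cd163 was at 11.98, 18.9 and 3.85 CPM with vehicle and at 432, 476 and 542 CPM with ginkgetin (log2 fold change 4.91, SE 0.61, adjusted p = 0.0121, edgeR). Marco (2.96, adjusted p = 0.0110), Mrc1 (1.27, adjusted p = 0.0197) and Lyve1 (2.76, adjusted p = 0.0166) were also called higher by edgeR. The 8 endothelial markers were all called higher in this gate too, at 189 to 192 CPM with vehicle and 829 to 1622 CPM with ginkgetin, with a median log2 fold change of 3.10, and their part in the Mrc1 and Lyve1 values was not tested. Cd36 fell from 342 to 452 CPM to 131 to 257 CPM (-1.65, adjusted p = 0.0154, edgeR). Here too the count was 0 without vehicle library 1, vehicle library 2 or ginkgetin library 2, in fits that called 1, 0 and 1 of all genes. With the range in UMIs the count of called members was 2, among 51 of 4687 genes. Stab2 had an adjusted p of 0.0440 (edgeR) but a fold under 2, and Cd5l had a log2 fold change of -0.54 (adjusted p = 0.223, edgeR). Outside the gate the vehicle libraries held 378, 218 and 517 macrophage-like cells and the ginkgetin libraries only 12, 35 and 43. Among them Cd163 did not pass 1.07 CPM in vehicle libraries and was listed at 0, 13.1 and 14.9 CPM in ginkgetin libraries. Cd5l was lower there with ginkgetin, at 539, 974 and 666 CPM against 0, 125 and 152 CPM, with adjusted p = 0.121 without and 1.37e-05 with the replicate number as a block (edgeR), a fit that called 4.28% of genes there. That fit also called Cd36 lower (-1.65, adjusted p = 0.00692, edgeR).

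Because macrophage-like cells were less deep with ginkgetin, the share of cells with a UMI was compared after each cell had been thinned to 1000 UMIs. In Kupffer-like cells, Cd163 was found in 0.742%, 1.45% and 0.512% of vehicle cells and in 35.5%, 34.3% and 35.96% of ginkgetin cells. Marco was found in 2.05% to 3.71% and in 25.2% to 35.96%. Both shares were higher in all 3 ginkgetin libraries than in any vehicle library. The Cd163 share in thinned T cell-like cells did not pass 0.175% in any library, so the Kupffer-like values are above that background. Mrc1 was found in 26.3% to 28.2% of vehicle cells and 56.2% to 77.6% of ginkgetin cells, and in 0.794% to 0.904% and 1.91% to 5.79% of T cell-like cells. The endothelial marker RNA of this gate, given above, moved with it, and its part was not tested. Cd36 was found in 26.3% to 34.4% and 10.8% to 24.1%, and Cd5l in 79.7% to 88.8% and 90.5% to 98.2%. Each of these comparisons gave an exact two-sided permutation p of 0.10, the smallest that 3 against 3 libraries allow, and 0.136 after adjustment over 30 such tests. Thinning left out 1 vehicle and 51 ginkgetin Kupffer-like cells. Unthinned, the Cd163 share was 6.49% with vehicle and 55.2% with ginkgetin, and the Msr1 share was 82.0% and 54.0%, the opposite order to its thinned shares of 20.7% to 23.1% and 25.2% to 37.7%.

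**Figure D2:**
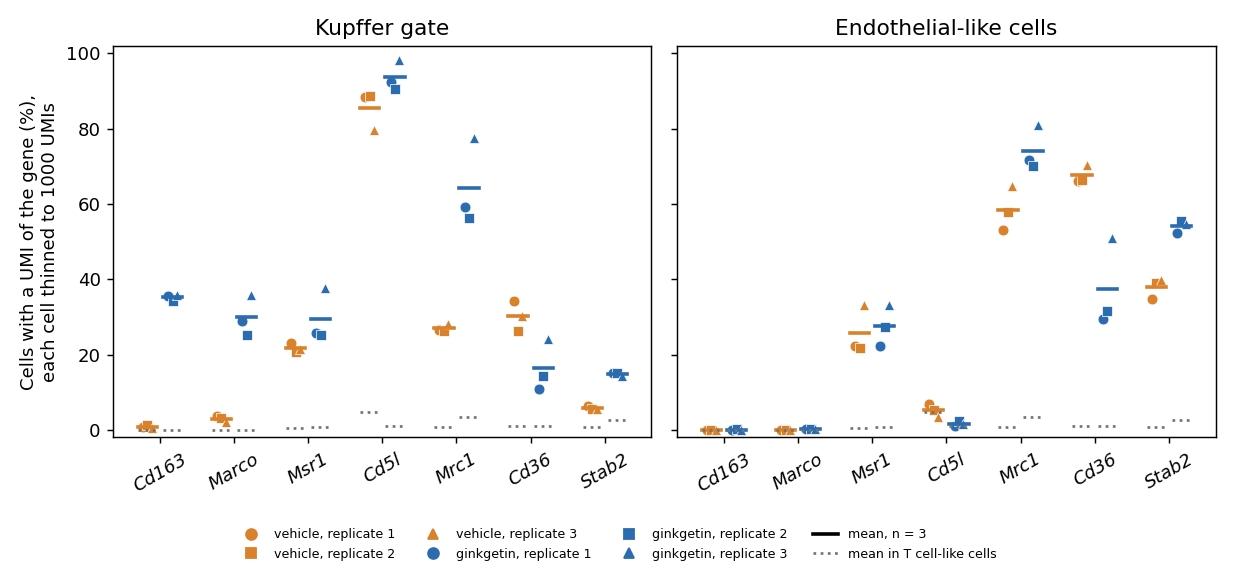
Percent of cells with at least 1 UMI of 7 members after thinning to 1000 UMIs per cell, in Kupffer-like and endothelial-like cells, with 1 point for each library, a bar at each group mean and a dotted line at the mean of T cell-like cells. The Cd163 and Marco shares of Kupffer-like cells do not pass 3.71% in the 3 vehicle libraries and are at least 25.2% in the 3 ginkgetin libraries, and the dotted lines show the background.

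The few vehicle Kupffer-like cells with a Cd163 UMI also held other resident markers more often. Of 120 such vehicle cells, 29.2% held a Marco UMI and 55.8% a UMI of Timd4, a marker of long-lived Kupffer cells, against 3.92% and 15.9% of the 1759 vehicle cells without Cd163. Their median depths were alike, at 10934 and 11011 UMIs. Trem2, a marker of lipid-associated macrophages, was found in 71.7% and 87.3% of them. In ginkgetin libraries 450 cells held Cd163, of which 45.6% held Marco, 68.7% Timd4 and 12.2% Trem2, at a median depth of 2608 UMIs. The 360 ginkgetin cells without it had 40.0%, 46.4% and 8.33% at 1710.5 UMIs. Cells of 1 library are not replicates, so these shares describe the cells and were given no test.

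In endothelial-like cells the called change was a fall of Lyve1. It was at 515, 503 and 825 CPM in vehicle libraries 1 to 3 and at 205, 134 and 240.3 CPM in ginkgetin libraries 1 to 3. Every ginkgetin library was below every vehicle library, and the mean went from 614 ± 183 to 193 ± 54.3 CPM, a log2 fold change of -1.80 (SE 0.25, adjusted p = 0.0479, edgeR). Of 10418 genes tested 0.691% were called, and the groups did not overlap in 18.0% of genes. This call sat at the threshold: leaving out any 1 of the 6 libraries gave adjusted p values from 0.108 to 0.265 (edgeR), whereas the replicate block gave -1.82 with adjusted p = 0.00159. Each fit with 1 library left out called only 0 to 1 of all genes tested. With the range in UMIs Lyve1 was called as well (-1.91, adjusted p = 0.0401, edgeR). The thinned share of cells with a Lyve1 UMI was 34.4%, 33.1% and 42.0% with vehicle and 16.1%, 10.9% and 16.8% with ginkgetin.

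Cd36 was also lower in endothelial-like cells, at 1189, 1027 and 1374 CPM with vehicle and 397, 447 and 919 CPM with ginkgetin. The groups did not overlap, but ginkgetin library 3 lay close to the vehicle range. The log2 fold change was -1.22 (SE 0.29, adjusted p = 0.142) without and -1.27 (adjusted p = 0.00963, both edgeR) with the replicate block, which called 4.19% of all genes and 3 members. The third was Cd5l, at 65.8, 60.7 and 34.0 CPM against 7.87, 25.2 and 10.5 CPM (-2.05, adjusted p = 0.00830 with the block, edgeR). T cell-like cells had a like level of Cd5l, at 35.4 to 54.2 CPM with vehicle and 8.68 to 21.9 CPM with ginkgetin, which is the background level. The 6 macrophage markers moved the same way in endothelial-like cells, from 155 to 282 CPM with vehicle to 45.9 to 118 CPM with ginkgetin, with a median log2 fold change of -1.69 and 4 of 6 called lower with the block. In endothelial-like cells without a UMI of these markers the log2 fold change was -1.22 for Cd36 (adjusted p = 0.163) and -1.91 for Cd5l (adjusted p = 0.290, both edgeR).

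Stab2 and Mrc1 were higher in each ginkgetin library than in any vehicle library of endothelial-like cells, without being called. Stab2 was at 427, 483 and 586 CPM with vehicle and 804, 915 and 940.4 CPM with ginkgetin (log2 fold change 0.69, adjusted p = 0.186, edgeR). Mrc1 was at 742, 850.4 and 1183 CPM and at 1351, 1321 and 1986 CPM (0.60, adjusted p = 0.294, edgeR). With the replicate block both had an adjusted p under 0.05 (0.0126 and 0.0218, edgeR) with a fold under 2. The 8 endothelial markers were higher in these cells too, at 8289 to 11528 CPM with vehicle and 13127 to 17959 CPM with ginkgetin, with a higher mean for 8 of 8 and none called by edgeR. Their part in the Stab2 and Mrc1 values was not tested. Stab1 overlapped between groups, at 392 to 871 and 699 to 1296 CPM, although it was higher with ginkgetin in each same-numbered pair. Msr1 at 241 to 433 and 265 to 497 CPM, and Scarb1 at 39.2 to 113 and 72.7 to 109.8 CPM, overlapped as well. Cd163 and Marco did not pass 3.28 CPM in any library and were not tested.

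**Figure D3:**
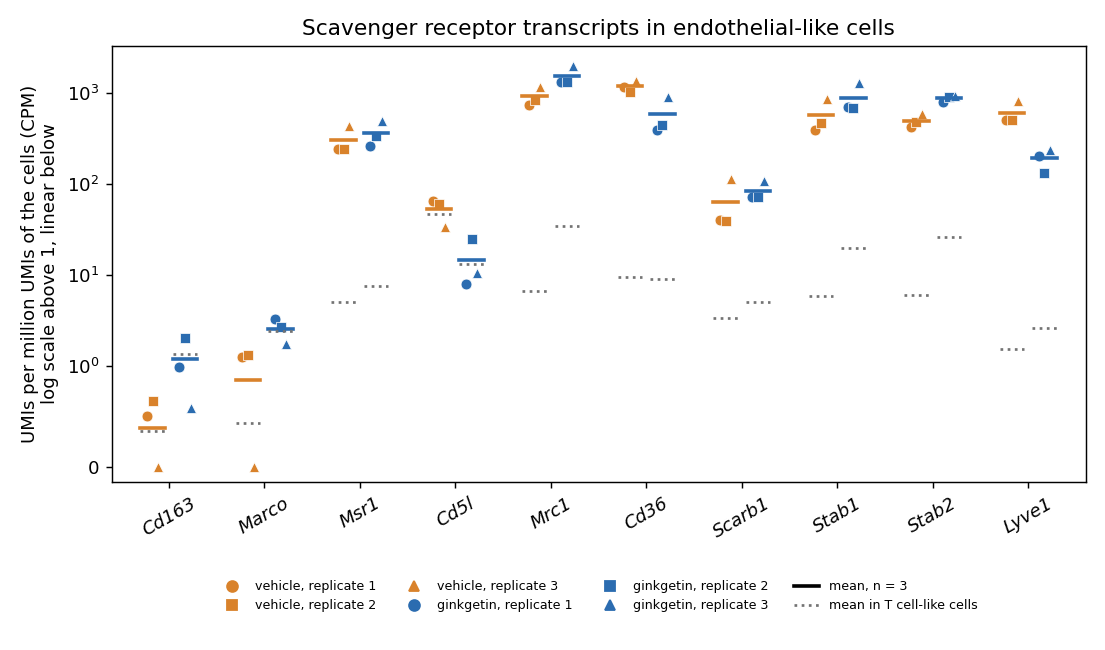
Level of each member in endothelial-like cells, in CPM on an axis that is a log scale above 1 and linear below, with 1 point for each library, a bar at each group mean (n = 3 each) and a dotted line at the mean of T cell-like cells. Lyve1 and Cd36 lie lower and Stab2 and Mrc1 higher in the 3 ginkgetin libraries, and Cd163 and Marco are near 0 in both groups.

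Sinusoidal endothelial cells differ along the path from the portal vein to the central vein, so the members were also read in cells gated by zone markers. Pericentral cells had at least 2 of Wnt2, Rspo3, Wnt9b, Kit, Thbd and Cdh13 and more of these than of the other lists, and periportal cells the same for Efnb1, Efnb2, Dll4, Ntn4, Adam23 and Ltbp4. The comparison between zones was added after the levels had been seen. Cd36 was at 924, 985 and 1115 CPM in vehicle pericentral cells and at 151, 167 and 207 CPM in ginkgetin pericentral cells. The groups were wide apart, with a log2 fold change of -2.65 (SE 0.25, adjusted p = 0.00957, edgeR), in a gate where 0.201% of 5977 genes were called. In periportal cells Cd36 was at 1311, 1054 and 1459 CPM and at 453, 477 and 1007 CPM, with -1.17 (adjusted p = 0.181) without and -1.21 (adjusted p = 0.00456, both edgeR) with the replicate block, which called 3.91% of genes there. In cells gated by vascular markers it was at 820 to 1034 CPM with vehicle and 714 to 1399 CPM with ginkgetin.

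The ratio of Cd36 in pericentral to periportal cells was 0.705, 0.934 and 0.764 in the vehicle libraries and 0.332, 0.350 and 0.206 in the ginkgetin libraries. The ginkgetin ratios were all below the vehicle ratios. An exact two-sided permutation test of these ratios gave p = 0.10, the smallest that 3 against 3 libraries allow. Tested as the difference of the 2 group effects, with each library as a block, Cd36 gave -1.51 on the log2 scale (SE 0.13, adjusted p = 1.28e-13, edgeR), 1 of the 0.243% of 9038 genes called. It stayed called without any 1 library, at -1.68 to -1.17. Lyve1 fell in pericentral cells, from 467, 515 and 558 CPM to 99.7, 71.4 and 125 CPM (-2.51, adjusted p = 0.0132, edgeR), and was at 515 to 931 against 146 to 274 CPM in periportal cells (-1.78, adjusted p = 0.0652, edgeR). Its difference between zones was -0.76 (SE 0.15, adjusted p = 0.00199, edgeR), a fold under 2. Vehicle library 3 had only 16 pericentral cells.

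Msr1 was lower in pericentral than in periportal cells in both groups. It was at 0 to 69.7 CPM in vehicle and 22.5 to 56.7 CPM in ginkgetin pericentral cells, against 323 to 480.2 and 361 to 622 CPM in periportal cells. The ranges of the zones were wide apart in each group. Stab2 was at 559.7 to 647 CPM in vehicle and 939.7 to 1243 CPM in ginkgetin pericentral cells, and at 414 to 635 and 737 to 955 CPM in periportal cells, so its zones overlapped in both groups. Within libraries its ratio of pericentral to periportal cells was 1.35, 1.36 and 0.983 with vehicle and 1.27, 1.41 and 1.30 with ginkgetin. The Mrc1 ratio of pericentral to periportal cells was 0.887, 0.894 and 0.717 with vehicle and 1.04, 1.08 and 0.983 with ginkgetin, and the groups did not overlap (difference between zones 0.31, adjusted p = 0.203, edgeR).

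**Figure D4:**
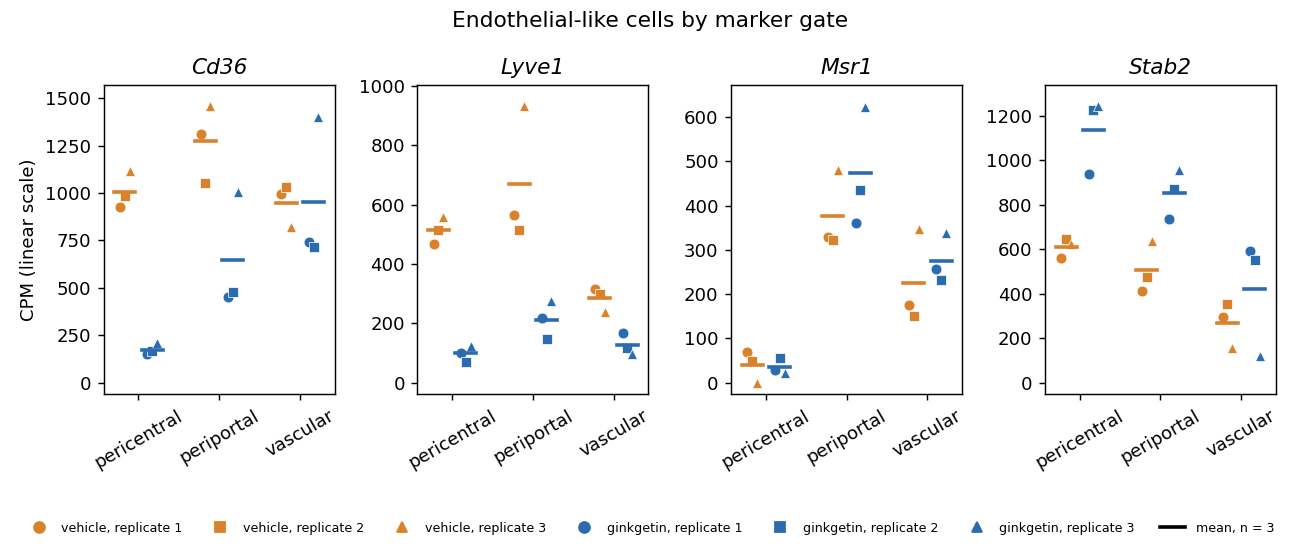
Levels of Cd36, Lyve1, Msr1 and Stab2 in CPM on a linear axis, in endothelial-like cells gated as pericentral, periportal or vascular, with 1 point for each library and a bar at each group mean. Cd36 at 151 to 207 CPM in ginkgetin pericentral cells lies far below its 3 vehicle libraries, and Msr1 is low in pericentral cells of both groups.

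Of the members, Lyve1 was called different in its group effect between endothelial-like and macrophage-like cells, and Cd5l lay just outside the threshold. For Lyve1 the difference of the 2 log2 fold changes was -4.27 (SE 0.41, adjusted p = 1.60e-04, edgeR), since it was lower in the first class and higher in the second. Of 11701 genes tested 8.38% were called, and the value was -4.77 to -3.95 without any 1 library. In cells without UMIs of the other class it was -3.94 with adjusted p = 0.196 (edgeR). For Cd5l the difference was -1.71 (adjusted p = 0.0509, edgeR). Its level in endothelial-like cells was like that in T cell-like cells, the background given above. Macrophage marker RNA was lower with ginkgetin in both of these classes, and its part was not tested. Cd5l was called with DESeq2's size factors (0.0320), in cells without UMIs of the other class (0.00191), without ginkgetin library 2 (0.00186) and without vehicle library 3 (0.0146, each an adjusted p of edgeR). No difference is given for Cd163, which had 2, 1 and 0 UMIs in the endothelial-like cells of the vehicle libraries. Scarb1 was called without vehicle library 3 (1.11, adjusted p = 0.0113, edgeR).

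Member levels were also summed over all kept cells, whose classes differed in share between groups. Macrophage-like cells were 22.5 ± 3.70% of cells with vehicle and 7.21 ± 6.83% with ginkgetin, and endothelial-like cells 15.6 ± 5.43% and 38.7 ± 9.05% (SD, n = 3, exact permutation p = 0.10 each). The ginkgetin libraries differed among themselves, with macrophage-like cells at 3.01%, 3.54% and 15.1%. In such sums fewer cells of a type and less RNA per cell cannot be told apart. Cd5l fell from 1460.5, 1272 and 1681 CPM to 119, 123 and 514 CPM (log2 fold change -2.99, adjusted p = 0.0147, edgeR). Stab2 rose from 58.0 to 68.4 CPM to 223 to 400.4 CPM (2.03, adjusted p = 0.00494, edgeR), and Stab1, Mrc1 and Cd163 were also called higher. These were 5 of 10 members, against 12.8% of 14240 genes. With the range of 250 to 5000 UMIs per cell, which keeps 16821 cells, not the study's own cell set, and drops most macrophage-like cells of vehicle libraries, 0 of 12131 genes were called by edgeR, members included, and Cd5l had a log2 fold change of 0.51. Without vehicle library 1, vehicle library 2 or ginkgetin library 2, 1 member was called, beside 799 of 15095, 644 of 15209 and 626 of 15103 genes.

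The cells that supplied a member's UMIs changed for most members. Of Msr1 UMIs, 62.0% came from macrophage-like cells with vehicle and 9.87% with ginkgetin, while endothelial-like cells gave 21.8% and 83.3%. Cd36 UMIs from endothelial-like cells were 40.1% and 85.4%, and those of Mrc1 45.2% and 87.5%. For Lyve1 they were 94.9% and 95.3%. Cd163 UMIs came from macrophage-like cells in both groups, at 87.9% and 86.5%, as did those of Marco at 86.7% and 79.4%.

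**Figure D5:**
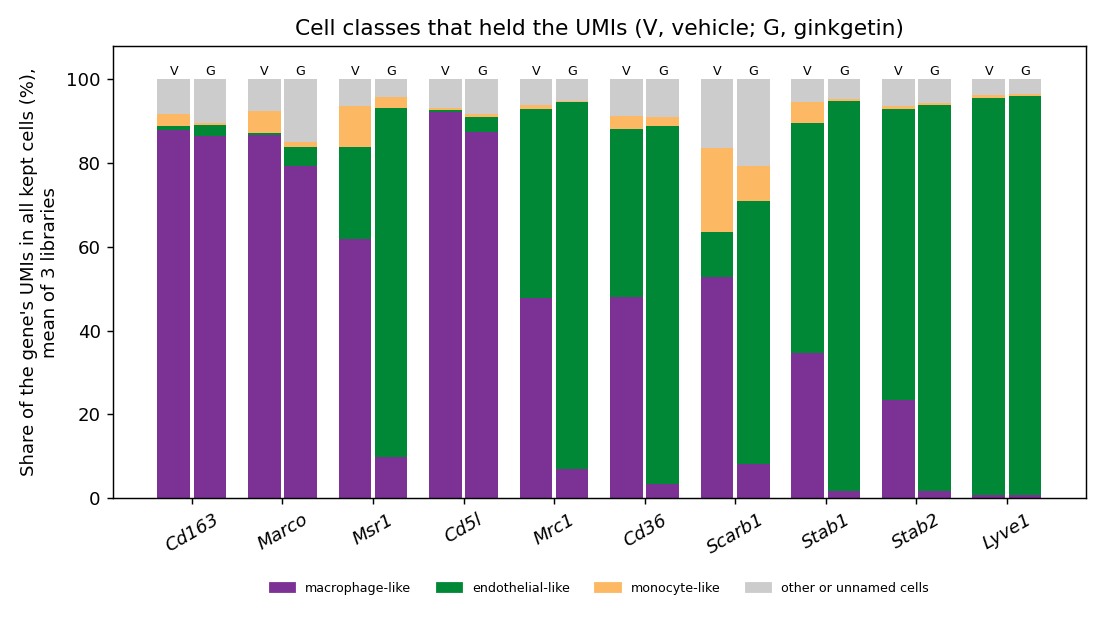
Percent of each member's UMIs, over all kept cells, that came from macrophage-like, endothelial-like, monocyte-like and other cells, as the mean of 3 libraries in each group. Msr1, Cd36, Stab1, Stab2 and Mrc1 come mainly from endothelial-like cells in the ginkgetin libraries, and Cd163, Marco and Cd5l from macrophage-like cells in both.

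In the other classes and in the monocyte-like subsets, edgeR called 0 of 54 tests of a member, of which 26 had an unadjusted p under 0.05, and DESeq2 called 14 of 47. Where a member was tested, the share of all genes with such an edgeR p was lowest in plasmacytoid dendritic-like cells (328 of 4451). It was highest in hepatocyte-like cells (1126 of 5140). DESeq2 called 10 and 146 genes in these classes, its lowest and highest shares. With the replicate block 17 member tests were called, against 2.2% of all gene tests in these cells, and 13 of the 17 were of Mrc1, Stab2 or Cd5l. The monocyte-like class and its subset both enter, so their Mrc1 and Stab2 calls share cells. In hepatocyte-like cells, which gave 4 of the 17 calls (Cd36, Mrc1, Msr1 and Stab2), ginkgetin library 1 held 0 cells and ginkgetin library 2 held 12, so these rest on 2 ginkgetin libraries. The 4 Cd5l calls were lower and the 9 of Mrc1 or Stab2 higher, the directions in which macrophage and endothelial marker RNA moved in T cell-like cells, and the part of that RNA was not tested. In patrolling monocyte-like cells Cd36 was at 337, 128 and 170 CPM with vehicle and at 423, 298 and 442 CPM with ginkgetin. The ranges overlapped, and the log2 fold change was 0.79 (adjusted p = 0.495, edgeR). Cd36 in the other monocyte-like cells was at 17.4 to 64.1 and 29.1 to 59.1 CPM.

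Genes that act beside the members were read from lists chosen with earlier results known. In macrophage-like cells the list counts stand against 10.2% of all genes called, and 7 of 8 endothelial markers were also called higher there, whose part in the genes named below was not tested. Of 12 lipid-handling genes tested in macrophage-like cells, 4 were called lower and 0 higher, with a median log2 fold change of -0.95 against 0.02 for all genes. Fabp5, a fatty acid carrier, fell from a mean of 611 to 36.9 CPM (-4.49, adjusted p = 0.0118, edgeR), and Plin2 (-2.33), Apoe (-2.51) and Lpl (-1.28) were the others. Of 12 regulators 3 were called higher, which were Klf2 (1.601), Rxra (1.31) and Meis2 (2.60), and Pparg, a nuclear receptor of lipid genes, was called lower (-2.39, adjusted p = 0.0120, edgeR). Of 10 heme and iron genes 1 was called higher, the iron exporter Slc40a1 (525 to 1897 CPM, 1.37, adjusted p = 0.0202, edgeR), and Blvra (-1.24) and Hmox2 (-1.04) were called lower. Of 7 other scavenger receptors Cd68 was the 1 called, lower (-1.81), and of 14 clathrin genes Ap2a2 (1.12) and Dab2 (1.11) were called higher. In Kupffer-like cells the heme list also had Blvrb lower (-1.15). In endothelial-like cells 0.691% of all genes were called, and only 0 to 1 gene when any 1 library was left out. Of 12 lipid-handling genes 2 were called there with all libraries, both lower. Abca1, a cholesterol exporter, fell from 204 to 33.4 CPM (-2.75, adjusted p = 0.0160, edgeR) and Fabp4 from 5205 to 988 CPM (-2.55, adjusted p = 0.0479, edgeR). The other lists had no called gene there (edgeR), and the pairs with the lowest p were Olr1 (-5.19, adjusted p = 0.0769) and Cd68 (-1.50), Pparg (-1.99, adjusted p = 0.0670) and Rxra (0.69), Slc40a1 (0.82, adjusted p = 0.107) and Slc48a1 (0.81), and Eps15 (0.59, adjusted p = 0.191) and Ap2a2 (0.72).

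Over the 12 classes the genes most like each member were described by Pearson's r of log2 CPM, with class means as points that share libraries and depth. Cd163 was most like Cd5l (r = 0.940), Timd4 (0.937) and Cd207 (0.933). Cd5l was most like Vsig4 (0.991), Clec4f (0.987) and Adamdec1 (0.975), and Marco like Kcna2 (0.935), Folr2 (0.932) and Tmem26 (0.917). The 2 stabilins and Mrc1 shared Il1a as the nearest gene, at 0.973 for Stab1, 0.979 for Stab2 and 0.985 for Mrc1. Next came Stab2 (0.970) and C5ar2 (0.970) for Stab1, Exoc3l2 (0.976) and Stab1 (0.970) for Stab2, and Dysf (0.963) and Stab1 (0.960) for Mrc1. Lyve1 was most like Fabp4 (0.977), Adgrf5 (0.976) and Btnl9 (0.973), and Msr1 like C5ar2 (0.953), Tmem106a (0.949) and Rab5c (0.936). Cd36 was most like Gatm (0.939), Adcy4 (0.931) and Pcbp1 (0.921), and Scarb1 like Dnajb14 (0.936), Hsd17b11 (0.931) and Atp6v1g1 (0.926).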

How the data were processed

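Single-cell RNA was measured in 6 libraries, 3 vehicle and 3 ginkgetin. The authors deposited raw UMI counts per gene and cell barcode, made against GRCm38/mm10 per the submitters' processing notes. The sample descriptions name 10x Genomics, whereas the protocol text names an RNA extraction kit and a SMARTER library kit, and the aligner version is not given in the sources used here. Cells with 250 to 5000 detected genes and under 5% mitochondrial UMIs were kept. The study states this range for UMIs per cell, and the range in UMIs, which keeps 16821 cells, is given as an alternative. The total the study describes lies between these and the 27544 kept here, nearer the latter, so neither filter gives its exact cells. Scrublet marked 0.0286% to 0.192% of cells per library, so it did not work as a doublet caller and no cell was removed for doublets. Cells were clustered with scanpy 1.11.5 (2000 variable genes without the members, 30 components, Leiden resolution 1) and named from marker lists, and 764 cells in 4 clusters stayed unnamed.

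The members and gene lists were chosen with earlier results of these data known. The planned Kupffer-like sub-clusters followed single libraries, so they were replaced by the marker gate after they had been seen. Counts were summed per library and class (at least 10 cells) and tested with edgeR 4.0.16 (quasi-likelihood, TMM, filterByExpr, group only, R 4.3.3). The SE is the size of the log2 fold change over the square root of F. The difference between classes or zones was an interaction with library as block. A gene was called at an adjusted p under 0.05 (Benjamini-Hochberg over all genes tested) and a fold over 2. Named genes were all members, up to 4 called genes of each list and class by p (the 2 with the lowest p where none was called), and the 3 genes most like each member by Pearson's r of log2(mean CPM + 1) over 12 classes, among genes with at least 50 CPM in 1 class. Permutation tests were exact and two-sided.

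Same-numbered libraries deviated from their group means together, with r of 0.402, 0.456 and 0.799 over genes in macrophage-like cells and 0.662, 0.632 and 0.908 in endothelial-like cells, so the replicate number was also fitted as a block. Libraries 1 and 2 also correlated crosswise (0.381 and 0.428 in macrophage-like cells, 0.615 and 0.671 in endothelial-like cells). These values lay near those of the same-numbered pairs, so they do not show a pairing by number within libraries 1 and 2. In simulated counts, genes changed 2-fold, 4-fold and 8-fold were recovered at 21%, 88.5% and 97.5% for macrophage-like cells (9982 to 9994 genes) and at 39.5%, 96% and 98.5% for endothelial-like cells (10276 to 10285 genes). These counts had the same fixed spread for every gene and no offset of replicate 3. Recovery was counted at an adjusted p under 0.05 without the fold rule. The shares therefore need not hold for the real libraries. DESeq2 1.42.0, other scalings, filters, groupings and left-out libraries were alternatives.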

Additional observations from a re-analysis of the deposited data

Results flagged for a closer look

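The group effect on Lyve1 differed between endothelial-like and macrophage-like cells by -4.27 on the log2 scale (adjusted p = 1.60e-04, edgeR interaction). Lyve1 was lower in all 3 ginkgetin libraries in the first class and higher in all 3 in the second, where its highest level was 11.7 CPM and endothelial marker RNA was also higher. The part of that RNA in this value was not tested.

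The group effect on Cd36 differed between pericentral and periportal endothelial cells by -1.51 (adjusted p = 1.28e-13, edgeR interaction). The pericentral to periportal ratio was lower in all 3 ginkgetin libraries (exact permutation p = 0.10, the smallest that 3 against 3 libraries allow). For Lyve1 the difference in group effect between zones was -0.76 (adjusted p = 0.00199, edgeR interaction), a fold under 2. Its adjusted p was 0.140 without vehicle library 1 and 0.0697 without vehicle library 2 (edgeR interaction). The comparison was added after the levels had been seen.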

How the results depend on the processing

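In macrophage-like cells the count of called members, 6, was 0 to 6 when 1 library was left out (0 without vehicle 1, vehicle 2 or ginkgetin 2), 2 with the range of 250 to 5000 in UMIs per cell and 2 in cells without UMIs of another class, and the replicate block changed none of the 6 calls. In Kupffer-like cells the 5 calls were 0 to 5 with 1 library left out and 2 with the UMI range. In endothelial-like cells the 1 call was 3 with the replicate block, with the barcode set as block, with DESeq2 and in replicates 1 and 2 alone, and 0 with library size only, without the filter on low counts, in cells without UMIs of another class and with 1 library left out (0 to 0). The fits with 1 library left out called 0 to 1 of all genes in these cells. Over all kept cells the 5 calls were 1 to 4 with 1 library left out and 0 with the UMI range. In the other classes the count of 0 became 14 with DESeq2, 17 with the replicate block and 13 with the barcode set as block. The 14 called genes of the lists in macrophage-like cells were 0 to 15 with 1 library left out and 4 with the UMI range. The number of members whose effect differed between endothelial-like and macrophage-like cells, 1, was 2 with DESeq2's size factors and 1 to 3 with 1 library left out. It was 3 without vehicle 3 and 3 without ginkgetin 2, and the latter counts Cd163, near 0 in endothelial-like cells. Between zones the number, 1, became 1 to 2 with 1 library left out. The difference in the Cd163 share of macrophage-like cells, 30.9 percentage points, was 18.3 at 500 UMIs, 44.0 at 2000 UMIs, 45.2 unthinned and 33.3 in replicate 3 alone. Values of members that were not called turned sign as follows, and the cause was not tested. In macrophage-like cells these were Msr1 (-0.00307 with DESeq2's size factors, -0.00732 unfiltered, -0.22 in replicates 1 and 2, -0.17 without cells of other UMIs, -0.21 to 0.13 with 1 library left out), Stab1 (-0.0144 with size factors, -0.00422 with DESeq2, -0.0300 unfiltered, -0.37 with the UMI range, -0.0990 to 0.28 with 1 library left out), Scarb1 (0.19 with library size only) and Cd5l (0.17 with library size only, 0.14 with the UMI range, 0.14 without cells of other UMIs). In Kupffer-like cells they were Msr1 (0.47 with library size only, 0.0152 with no cell filter, -0.24 to 0.0390 with 1 library left out), Scarb1 (0.15 with library size only) and Stab1 (0.40 with library size only, 0.21 in replicates 1 and 2, 0.11 with no cell filter, -0.21 to 0.25 with 1 library left out). In endothelial-like cells Msr1 was -0.12 with the UMI range and -0.00525 to 0.30 with 1 library left out. Over all kept cells they were Msr1 (0.32 with library size only, 0.75 with the UMI range, 0.39 without cells of other UMIs, -0.28 to 0.17 with 1 library left out), Lyve1 (0.21, 0.0806 with no cell filter, 0.52 without cells of other UMIs), Marco (-0.35 in replicates 1 and 2, -0.13 to 1.06 with 1 library left out) and Scarb1 (0.61 with the UMI range). A called value turned: Cd5l over all kept cells, -2.99, was 0.51 with the UMI range. The class difference of Stab2 was 0.13 without cells of other UMIs and that of Msr1 -0.0187 to 0.38 with 1 library left out. The zone difference with 1 library left out was -1.64 to 0.0295 for Msr1, -0.18 to 0.21 for Scarb1, -0.29 to 0.31 for Cd5l and -0.0206 to 0.26 for Stab2. Unthinned shares turned for Msr1 (-20.8 points) and Stab2 (-1.03) in macrophage-like cells and for Msr1 (-27.9), Stab2 (-10.9) and Mrc1 (-0.426) in Kupffer-like cells. Kupffer-like cells without UMIs of another class could not be run, since only 1 ginkgetin library kept 10 cells.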
